A study of Mus musculus with 8 samples.

Results

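Cell death genes were followed in IEC10 cells, an immortalized mouse intestinal epithelial line, after stimulation with a type III or a type I interferon. The genes were Tnfsf10, Fas, Daxx, Casp8, Xaf1, Ripk3, Mlkl, Casp1 and Casp4, and every array probe that carries one of these gene names was taken. These 9 genes, of 31791 gene names on the array, are covered by 11 of its 39429 non-control probes, and all 11 were among the 26009 probes that passed the filter on low signal and were tested. Of the 9, 8 genes were well above background on all 8 arrays, and Casp1 on a single array. Single-color Agilent arrays were hybridized with RNA of 2 samples of untreated cells, 3 samples stimulated with 20 ng/mL IFN-λ2 and 3 samples stimulated with 500 U/mL IFN-β. The stimulation lasted 9 h, and the cells of all groups had first been grown for 21 days on transwell inserts until polarized and confluent. They belong to 1 line, which carries a luciferase reporter under the Mx2 promoter according to the methods, and nothing in the labels says that the samples of a group came from separate cultures, so p-values measure the spread between these samples, which may be technical. Values are processed signals scaled to a 75th percentile of 1500 on each array (normalized gPS units, with values under 15 set to 15), and changes are differences of log2 units.

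Programmed cell death runs along several routes. In the extrinsic route, a ligand such as TRAIL, the product of Tnfsf10, or Fas ligand binds a death receptor, and the receptor recruits an adaptor and the initiator caspase Casp8. Where caspase-8 is held back, the kinase Ripk3 phosphorylates the pseudokinase Mlkl, which permeabilizes the plasma membrane in necroptosis. Casp1 and Casp4, the mouse gene of the caspase also called caspase-11, are inflammatory caspases that cleave gasdermin D in pyroptosis, and Casp4 senses cytosolic lipopolysaccharide. Xaf1 encodes a binding partner and antagonist of the caspase inhibitor XIAP. Daxx is a nuclear histone chaperone that also binds the cytoplasmic part of Fas. In the gut, epithelial cells are shed and replaced continuously, and these pathways remove damaged or infected enterocytes.

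Promoter sequences of the members were read from RefSeq (GRCm38.p6), which held an entry for 9 of the 9 genes, and 12 entries in all. Each entry reaches from 250 bases before to 50 bases after an annotated transcription start. The interferon-stimulated response element (ISRE), a DNA element found at many interferon-induced genes, was searched as GAAANNGAAA on both strands, and the gamma-activated site (GAS) as TTCNNNGAA, which reads the same on both strands. The exact ISRE letters were found in 0 of the 9 genes, against 3.99% of the 27025 genes in the table. The GAS letters were found in Fas alone, from base -93 to base -85 relative to the start, against 9.55% of the genes. A second search, chosen after the exact one had found no match, allowed 1 mismatch in the ISRE letters. It matched in 5 of the 9 genes, Tnfsf10, Fas, Xaf1, Ripk3 and Casp4, against 38.9% of the genes. Absence of a match says only that these letters are not in this window. The sequences below cover the 250 bases before and the 30 bases after the start and are written 5′ to 3′ on the strand of the gene. They are shown for the ligand, the XIAP antagonist and the caspase whose signal was higher under both interferons, for Casp8, whose groups overlapped, and for Fas, which holds the GAS letters. Daxx, also higher under both interferons, and Mlkl, higher under IFN-λ2, held no match and are not shown. Fas, with a match, passed under neither interferon. Whether matches go with the changes was not tested. Capitals mark the matches within these bases, with up to 1 mismatch for the ISRE. The ISRE match of Fas, at bases 40 to 49 after the start, lies outside them, and adjoining matches overlap in Xaf1 and Casp4.
Tnfsf10 (chr3:27316827-27317106, plus strand): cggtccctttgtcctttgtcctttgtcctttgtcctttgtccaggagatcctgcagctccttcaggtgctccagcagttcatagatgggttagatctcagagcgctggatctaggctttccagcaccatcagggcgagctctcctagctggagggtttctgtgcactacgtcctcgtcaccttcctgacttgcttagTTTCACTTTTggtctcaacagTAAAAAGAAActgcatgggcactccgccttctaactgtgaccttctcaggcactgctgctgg
Xaf1 (chr11:72301379-72301658, plus strand): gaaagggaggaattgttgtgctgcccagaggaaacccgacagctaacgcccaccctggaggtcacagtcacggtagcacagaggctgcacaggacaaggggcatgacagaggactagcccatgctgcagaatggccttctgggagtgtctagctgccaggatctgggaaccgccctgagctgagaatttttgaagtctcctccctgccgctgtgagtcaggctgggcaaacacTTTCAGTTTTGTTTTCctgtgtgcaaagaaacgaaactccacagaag
Casp4, first of 2 entries (chr9:5308599-5308878, plus strand): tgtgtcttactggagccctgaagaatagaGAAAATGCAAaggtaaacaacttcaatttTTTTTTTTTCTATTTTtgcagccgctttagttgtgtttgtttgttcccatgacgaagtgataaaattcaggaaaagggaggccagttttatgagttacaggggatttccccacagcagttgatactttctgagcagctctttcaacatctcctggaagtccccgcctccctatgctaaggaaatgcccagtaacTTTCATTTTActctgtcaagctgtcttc
Casp8 (chr1:58802252-58802531, plus strand): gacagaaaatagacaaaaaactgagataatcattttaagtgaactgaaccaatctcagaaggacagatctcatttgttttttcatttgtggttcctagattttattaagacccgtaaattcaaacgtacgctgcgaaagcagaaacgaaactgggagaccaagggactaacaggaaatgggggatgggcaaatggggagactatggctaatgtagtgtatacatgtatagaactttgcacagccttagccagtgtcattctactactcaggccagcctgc
Fas (chr19:34290409-34290688, plus strand): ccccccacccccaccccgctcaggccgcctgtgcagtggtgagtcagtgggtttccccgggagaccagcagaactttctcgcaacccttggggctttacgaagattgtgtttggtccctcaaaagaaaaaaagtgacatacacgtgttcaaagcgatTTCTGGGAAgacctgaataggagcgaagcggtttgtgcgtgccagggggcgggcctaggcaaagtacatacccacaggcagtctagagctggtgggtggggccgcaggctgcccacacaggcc

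The first question was whether each interferon changed the members against untreated cells. IFN-λ2 raised 8 of the 11 probes (Tnfsf10, Daxx, both Xaf1 probes, Ripk3, Mlkl and both Casp4 probes) and lowered 0 at an adjusted p under 0.05 in limma. Among all probes tested, 10.1% were higher and 8.39% lower under IFN-λ2. Under IFN-β, 6 of the 11 probes were higher (Tnfsf10, Daxx, both Xaf1 probes and both Casp4 probes) and 0 lower, against 1.42% and 0.211% of all probes. The median log2 change of the 11 probes was 0.83 under IFN-λ2 and 0.81 under IFN-β, and that of all probes tested was 0.0039 and 0.016. Both comparisons share the same 2 control arrays. In these bulk samples, a change in the share of cells that express a gene and a change in its RNA per cell cannot be told apart. Counted as genes, 6 of 9 were higher under IFN-λ2 and 4 of 9 under IFN-β.

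**Figure D1:**
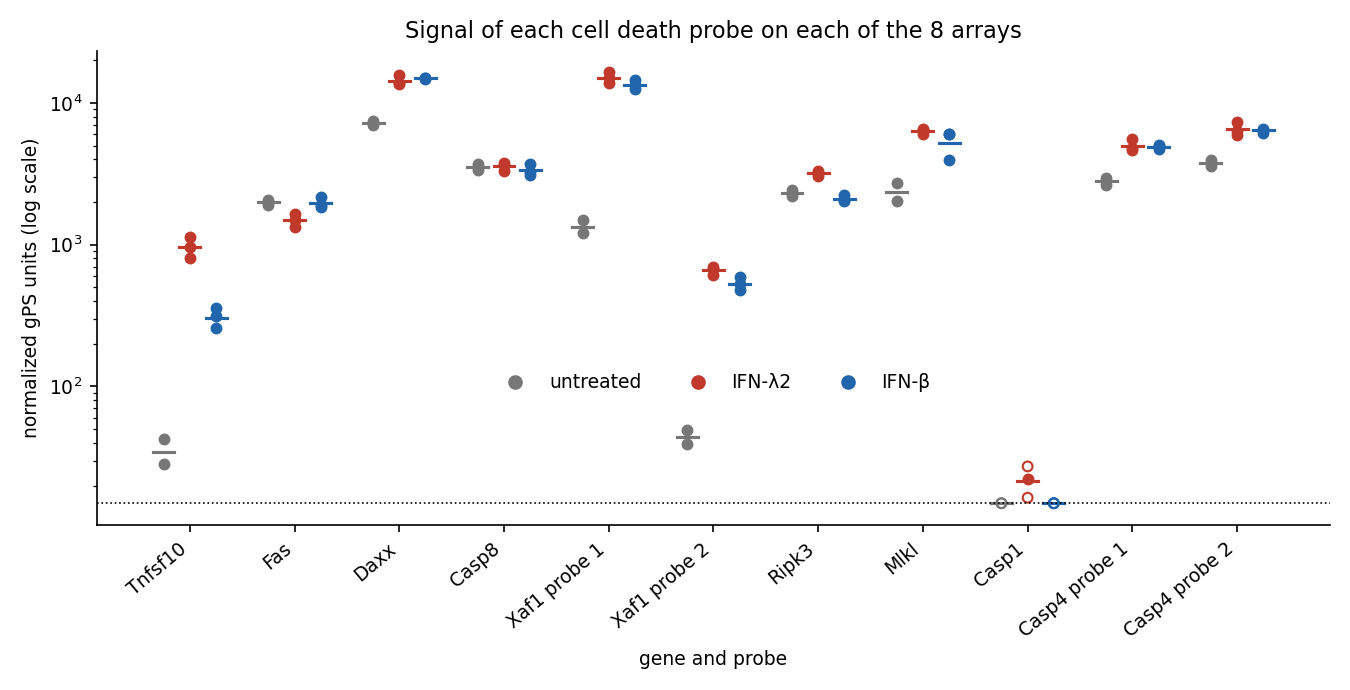
Signal of each member probe in normalized gPS units (log axis) on the 2 untreated (gray), 3 IFN-λ2 (red) and 3 IFN-β (blue) arrays. Points are arrays, bars are means of log2 values shown in units, open points were not well above background, and the dotted line is the threshold of 15 units, where the untreated and IFN-β arrays of Casp1 lie; Tnfsf10 and Xaf1 are separated most widely from the untreated arrays.

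Before the individual genes, the arrays themselves were checked. Between 20987 and 24244 probes per array were well above background, none was saturated, and the median of the 153 negative control features lay between 3.31 and 8.13 units. The number of arrays limits the precision of each value. Arrays of 1 replicate number shared a slide and a scan, and each group had the same position on every slide, so that position and treatment cannot be told apart. Replacing the background correction of the scanner software by normexp together with an offset of 50 added to every signal, whose parts were not separated, gave 807 higher and 247 lower probes for IFN-λ2 against untreated cells, in place of 2621 and 2183, and moved the median of all probes from 0.004 to 0.11. For IFN-β it gave 215 higher and 0 lower in place of 369 and 55, and for IFN-λ2 against IFN-β 489 and 153 in place of 1466 and 1446. All 9 epithelial markers examined, Cdh1, Epcam and keratins among them, were well above background on all 8 arrays. Their sums were 318337 to 337604 units in untreated cells, 364752 to 388108 under IFN-λ2 and 322292 to 367301 under IFN-β. Of the 9, 3 were higher (Cdh1, Krt19 and Ocln) and 1 lower (Cldn4) under IFN-λ2 against untreated cells, beside 10.1% and 8.39% of all probes. Under IFN-β 0 were higher or lower. Of 10 markers of intestinal epithelium, 5 were well above background on all 8 arrays (Vil1, Krt20, Lgals4, Muc13 and Fabp2). The intestinal transcription factor Cdx2 was not well above background on any array. The summed signal of these 10 was 82038 to 97880 units in untreated cells, 144794 to 151663 under IFN-λ2 and 101278 to 110860 under IFN-β, and most of it was Krt20. Krt20 was higher under IFN-λ2 than in untreated cells (log2 change 0.73, adjusted p = 0.00308 in limma). Of 8 tested, 3 were higher under IFN-λ2, Krt20, Fabp2 and Cdh17, beside 10.1% of all probes, and 0 under IFN-β. Cdh17 was at 15 units on all untreated and IFN-β arrays and could only be called higher under IFN-λ2. Of 10 leukocyte markers, 3 were well above background on all arrays (Cd3e, Itgam and Cd68) and Itgax on none, with summed signals of 6297 to 8719 units in untreated cells, 2449 to 4034 under IFN-λ2 and 3252 to 11121 under IFN-β. Most of this sum was Itgam, which did not differ past the threshold between IFN-λ2 and untreated cells (adjusted p = 0.145). Fibroblast markers reached that level on all arrays in 0 of 7 cases, with sums of 131 to 140 units in untreated cells, 124 to 127 under IFN-λ2 and 150 to 173 under IFN-β. Among 4 endothelial markers only Kdr did, and the sums were 830 to 1012, 830 to 986 and 920 to 954 units. The part of these marker differences in the results below was not tested.

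Tnfsf10 encodes the death ligand TRAIL, which signals through the death receptor Tnfrsf10b in mice. Its probe lies at chr3:27238508-27238567 (mm9, the build of the array files). In untreated cells it measured 42.5 and 28.4 units, close to the lower end of the range. Under IFN-λ2 it measured 1130, 961 and 806 units, and under IFN-β 257, 355 and 312 units. The 3 groups did not overlap, and every IFN-λ2 array lay above every IFN-β array. The mean rose from 35.5 ± 10.01 (SD, n = 2) to 965 ± 162 units (SD, n = 3) with IFN-λ2 and to 308 ± 49.1 units (SD, n = 3) with IFN-β. This was a log2 change of 4.78 ± 0.23 (SE), or 27.5-fold (adjusted p = 3.08e-05), for IFN-λ2 and of 3.13 ± 0.23, or 8.78-fold (adjusted p = 0.000441), for IFN-β. Ranked by log2 change among the 26009 probes, it stood at place 13 under IFN-λ2 and at place 56 under IFN-β. With normexp and its offset, the log2 changes were 3.45 and 1.94. On the slides that held all 3 groups, IFN-λ2 exceeded the control by 4.50 and 4.83 and IFN-β by 3.06 and 3.46 on the log2 scale. The genes most like Tnfsf10 in their control-centered log2 values over the 8 arrays, among 20252 other probes well above background on all arrays, were Slfn2, Phf11 and D14Ertd668e, with root mean square differences of 0.25, 0.29 and 0.30.

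Fas encodes the receptor for Fas ligand. Its probe (chr19:34402164-34402223, mm9) measured 2071 and 1909 units in untreated cells, 1336, 1484 and 1653 units under IFN-λ2 and 2181, 1850 and 1897 units under IFN-β. The IFN-λ2 arrays were all below the arrays of the other groups, while the untreated and IFN-β arrays overlapped. The log2 difference from untreated cells was -0.42 ± 0.12 (SE) for IFN-λ2, with an adjusted p of 0.0501, and -0.01 ± 0.12 for IFN-β (adjusted p = 0.987). The first of these did not pass the threshold, and its 95% interval of -0.70 to -0.14 excludes 0 before adjustment. It passed under 7 of 19 other limma settings, with adjusted p-values from 0.0285 to 0.183 over all 19. On the shared slides the IFN-λ2 array was below the control by 0.48 and 0.21. The nearest patterns were those of Cilp2, Ptp4a3 and Gm1153, at differences of 0.070, 0.073 and 0.073.

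Daxx was higher under both interferons and by nearly the same amount. Its probe (chr17:34052404-34052463, mm9) measured 6938 and 7465 units in untreated cells, 13634, 15643 and 13821 units under IFN-λ2 and 14625, 15031 and 15059 units under IFN-β. No stimulated array overlapped the controls, while the interferon groups overlapped each other. The log2 change was 0.99 ± 0.08 (SE; 1.99-fold, adjusted p = 0.000498) for IFN-λ2 and 1.05 ± 0.08 (2.07-fold, adjusted p = 0.000799) for IFN-β. Within slides 2 and 3 it was 1.17 and 0.89 for IFN-λ2 and 1.12 and 1.01 for IFN-β. Nearest in pattern were Tor1aip1, at 0.084, the transcript ENSMUST00000056140 and Dcp2. Casp8, the initiator caspase of the death receptors, was measured at chr1:58901601-58901660 (mm9). Its signal was 3356 and 3683 units in untreated cells, 3653, 3750 and 3313 units under IFN-λ2 and 3736, 3080 and 3245 units under IFN-β. The 3 groups overlapped, and the log2 differences from untreated cells were 0.02 (95% interval -0.23 to 0.28, adjusted p = 0.917) and -0.07 (-0.33 to 0.18, adjusted p = 0.843). Its nearest patterns were those of Ube2l3, Fam60a and Dld, at 0.017, 0.029 and 0.037.

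Xaf1, the antagonist of XIAP, was measured by 2 probes to 1 transcript. The first, at chr11:72122169-72122228 (mm9), gave 1209 and 1488 units in untreated cells, 15057, 16436 and 13726 units under IFN-λ2 and 14501, 13396 and 12555 units under IFN-β. The second, at chr11:72127175-72127234, gave 39.2 and 49.4 units in untreated cells, 700, 677 and 608 units under IFN-λ2 and 592, 524 and 480 units under IFN-β. On both probes the stimulated arrays lay far above the controls, and on the first the interferon groups overlapped. The log2 change was 3.49 ± 0.12 (SE; 11.2-fold, adjusted p = 7.71e-06) on the first and 3.91 ± 0.14 (15.01-fold, adjusted p = 6.70e-06) on the second probe for IFN-λ2. For IFN-β it was 3.33 ± 0.12 (10.03-fold, adjusted p = 1.55e-05) and 3.59 ± 0.14 (12.0-fold, adjusted p = 1.60e-05). Thus the probes gave the same direction and similar sizes in both comparisons. Within slides 2 and 3 the first probe changed by 3.76 and 3.21 under IFN-λ2 and by 3.47 and 3.08 under IFN-β. With normexp the second, dimmer probe changed by 2.79 and 2.48. Nearest to the first probe were Oas1a, Oas1f and Gbp2, at 0.12, 0.13 and 0.15; Oas1a itself changed by 3.58 and 3.36.

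Both necroptosis genes were higher under IFN-λ2 and did not pass under IFN-β. Ripk3 (chr14:56403949-56404008, mm9) measured 2203 and 2447 units in untreated cells, 3055, 3179 and 3300 units under IFN-λ2 and 2063, 2042 and 2232 units under IFN-β. The IFN-λ2 arrays were above all others, and the untreated and IFN-β arrays overlapped. Its log2 change was 0.45 ± 0.08 (SE; 1.37-fold, adjusted p = 0.0114) for IFN-λ2 and -0.14 ± 0.08 (adjusted p = 0.581) for IFN-β. Without control replicate 2 the IFN-λ2 change was 0.38 with an adjusted p of 0.0574, and with normexp it was 0.45 with an adjusted p of 0.145. Within slides 2 and 3 it was 0.53 and 0.43. Nearest to it were St3gal1, 1110012J17Rik and Pck2, at 0.057, 0.061 and 0.071. Mlkl, the executioner that Ripk3 phosphorylates, was measured at chr8:113835700-113835759 (mm9). It gave 2716 and 2023 units in untreated cells, 6012, 6538 and 6411 units under IFN-λ2 and 3963, 6051 and 6000 units under IFN-β. All stimulated arrays were above the controls, and IFN-β replicate 1 was the lowest of them. The log2 change was 1.43 ± 0.21 (SE; 2.69-fold, adjusted p = 0.00515) for IFN-λ2. For IFN-β it was 1.16 ± 0.21 (2.24-fold) with an adjusted p of 0.0536, which did not pass. Without IFN-β replicate 1 the IFN-β value was 1.36 with an adjusted p of 0.0113, and over 19 limma settings the adjusted p ran from 0.0113 to 0.274. On slides 2 and 3 the changes were 1.27 and 1.66 for IFN-λ2 and 1.16 and 1.57 for IFN-β. The patterns nearest to Mlkl were those of 2010005H15Rik, Pnpt1 and Btc, at 0.15, 0.17 and 0.18.

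Of the inflammatory caspases, Casp4 was well measured and Casp1 was not. Casp4 had 2 probes that overlap on the genome (chr9:5336663-5336722 and chr9:5336658-5336717, mm9) and are thus no independent measurements. The first gave 2636 and 2965 units in untreated cells, 4811, 5529 and 4628 units under IFN-λ2 and 4976, 4713 and 5013 units under IFN-β. The second gave 3589 and 3940 units in untreated cells, 6358, 7375 and 5907 units under IFN-λ2 and 6569, 6148 and 6480 units under IFN-β. The stimulated arrays were above the controls on both probes, and the interferon groups overlapped. The log2 change on the 2 probes was 0.83 ± 0.10 (SE; 1.78-fold, adjusted p = 0.00228) and 0.79 ± 0.11 (1.73-fold, adjusted p = 0.00361) for IFN-λ2. For IFN-β it was 0.81 ± 0.10 (1.75-fold, adjusted p = 0.00949) and 0.77 ± 0.11 (1.70-fold, adjusted p = 0.0176). In the fit with the replicate block the IFN-β values were 0.82 and 0.77 with adjusted p-values of 0.0933 and 0.133, so that the call was lost on both probes. It was also lost on both with normexp (0.80 and 0.73, adjusted p = 0.0507 and 0.121) and without control replicate 2 (0.72 and 0.70, adjusted p = 0.0688 and 0.108), and on the second probe without control replicate 3, without IFN-λ2 replicate 1 or without any single IFN-β array (adjusted p = 0.0519 to 0.0789). Within slides, IFN-λ2 exceeded the control by 1.07 and 0.64 and IFN-β by 0.84 and 0.76 on the first probe. On the second probe these values were 1.04 and 0.58, and 0.78 and 0.72. Psme2, Tmem106a and Gm7928 were nearest to Casp4, at 0.073, 0.074 and 0.078. Casp1 (chr9:5307206-5307265, mm9) measured no more than the 15-unit threshold on any untreated or IFN-β array and 16.4, 27.3 and 22.2 units under IFN-λ2. It was well above background only on the array of IFN-λ2 replicate 3, that is on 1 of 3 arrays of this group. The fitted log2 difference of 0.52 from untreated and from IFN-β cells had adjusted p-values of 0.108 and 0.107 and is set by the threshold on one side, so no fold is given. Casp1 passed the filter through IFN-λ2 arrays alone, all 5 other arrays being at the threshold, and could therefore only be called higher there.

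**Figure D2:**
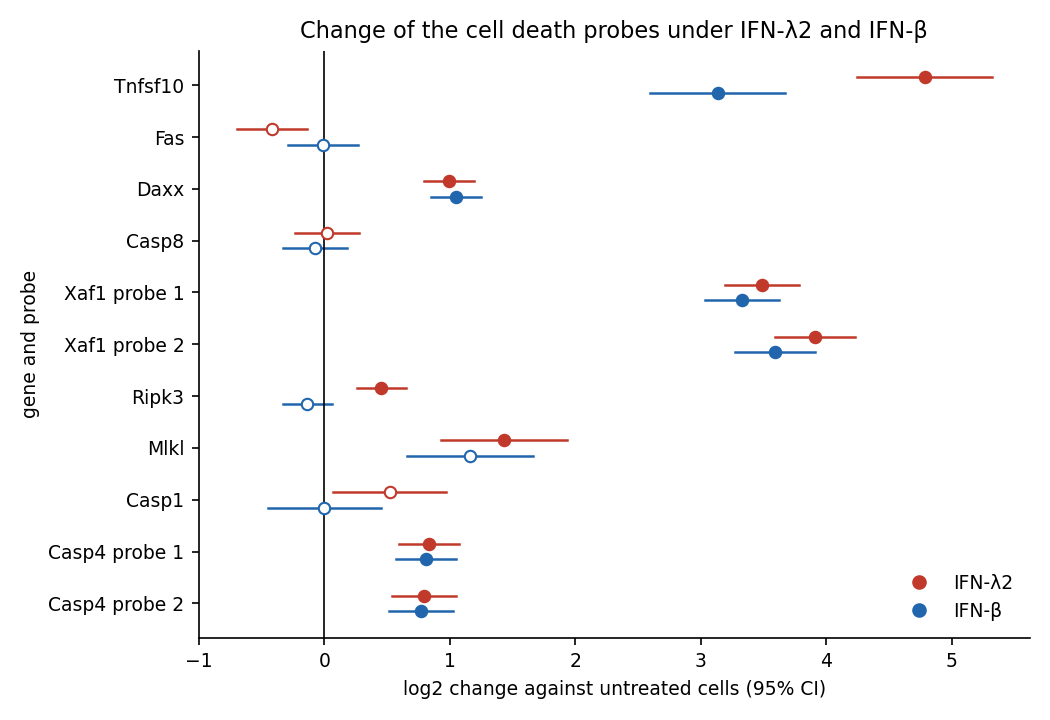
Log2 change of each member probe against untreated cells under IFN-λ2 (red, n = 3) and IFN-β (blue, n = 3), with 95% confidence intervals from limma; filled points passed an adjusted p of 0.05. Daxx, Xaf1 and Casp4 passed on every probe under both interferons, Tnfsf10 changed by 4.78 and 3.13, and the Casp1 values of untreated and IFN-β arrays are the threshold itself.

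The second question was where the interferons differed from each other. Of the 11 probes, 2 were higher under IFN-λ2 than under IFN-β, those of Tnfsf10 and Ripk3, and 0 were lower, while 5.64% of all probes were higher and 5.56% lower. The median log2 difference of the 11 probes was 0.16, and that of all probes was -0.012. Tnfsf10 was 3.13-fold higher under IFN-λ2, a log2 difference of 1.65 ± 0.20 (SE, adjusted p = 0.00384). Within slides 1, 2 and 3 the difference was 2.14, 1.44 and 1.37, so that it was in 1 direction on 3 of 3 slides. Ripk3 was 1.505-fold higher, a log2 difference of 0.59 ± 0.07 (SE, adjusted p = 0.00400), and 0.57, 0.64 and 0.56 within the 3 slides. The Fas difference of -0.41 ± 0.11 (SE) had an adjusted p of 0.0534 and was -0.71, -0.32 and -0.20 within slides. For Fas it passed under 3 of 19 limma settings. For the other members the difference did not pass. Its 95% interval was -0.23 to 0.12 for Daxx, -0.13 to 0.32 for Casp8, -0.10 to 0.42 and 0.03 to 0.61 for the probes of Xaf1, and -0.18 to 0.72 for Mlkl. For Casp4 it was -0.19 to 0.24 and -0.20 to 0.25. A p that misses the threshold does not show that the interferons acted alike on these genes. The second Xaf1 probe was higher on every IFN-λ2 array than on any IFN-β array (log2 difference 0.32, adjusted p = 0.158). The cytokines were given at 1 dose each, in different units, and at 1 time.

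**Figure D3:**
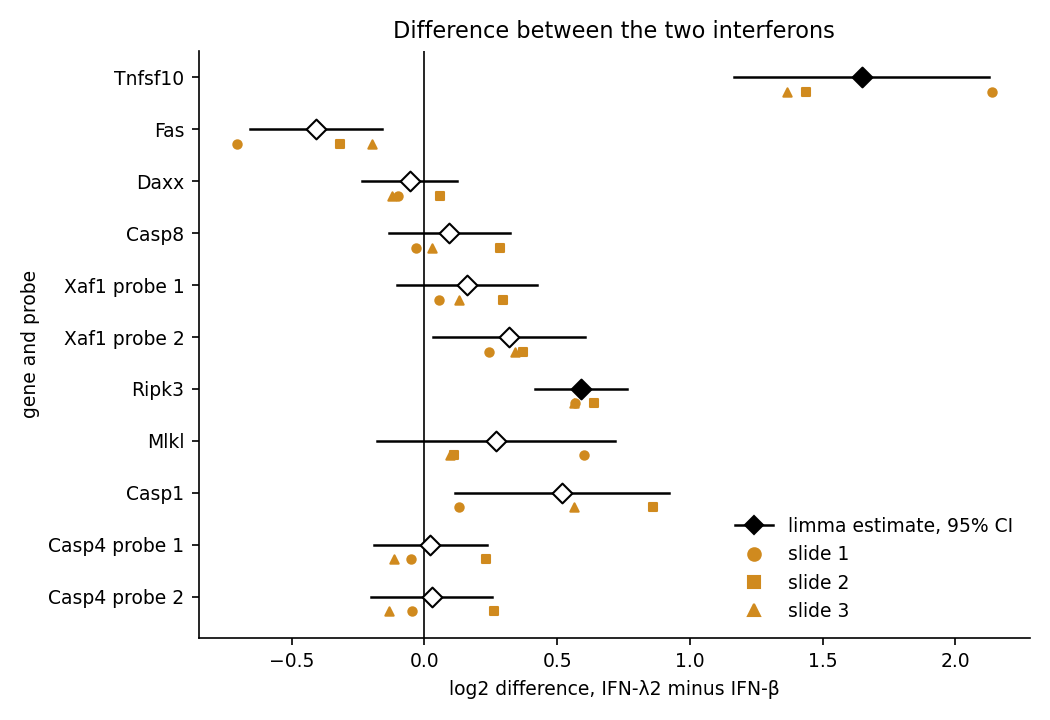
IFN-λ2 minus IFN-β on the log2 scale for each member probe: limma estimates with 95% confidence intervals (diamonds, filled where the adjusted p was under 0.05) and the difference within each of the 3 slides (orange). The Tnfsf10 values lie at 1.37 and above on all slides, and those of Ripk3 between 0.56 and 0.64.

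The other genes of these pathways, 101 in number, were taken from lists chosen with earlier results of these data known. Of these, 98 were on the array and 90 were tested on their brightest probe. Of these, 3 (Naip6, Gsdmc4 and Bcl2a1d) were at 15 units on all untreated and IFN-β arrays and passed the filter through IFN-λ2 arrays alone, so that they could only be called higher there. Of the other 87, 20 were higher and 8 lower under IFN-λ2 against untreated cells, beside 10.1% and 8.39% of all probes. Under IFN-β 4 were higher and 0 lower, beside 1.42% and 0.211%. Between the interferons, 12 were higher and 4 lower under IFN-λ2, beside 5.64% and 5.56%. The median log2 change of the 87 was 0.18, 0.030 and 0.059 in these comparisons, and that of all probes 0.0039, 0.016 and -0.012. The 4 genes higher under IFN-β, Zbp1, Sp100, Pml and Rnf31, were also called higher under IFN-λ2.

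Among 16 tested death ligands, receptors and decoy receptors other than the members, 3 were higher under IFN-λ2 (Tnfrsf1b, Tnfrsf21 and the decoy receptor Tnfrsf23). Of the same 16, 1 was lower (Tnfsf12), and 0 changed under IFN-β. The number lower is near the share of 8.39% over all probes, and a surplus of higher genes over the 10.1% of all probes was not tested for any list. Tnfrsf10b, the receptor of TRAIL, had mean signals of 5867, 6688 and 6088 units in untreated, IFN-λ2 and IFN-β cells, with adjusted p-values of 0.419 and 0.920. The ligand gene Fasl was not well above background on any array. In the death receptor complex, which holds adaptors, ubiquitin ligases and regulators of Casp8, 3 of 12 genes were higher under IFN-λ2 and 1 under IFN-β, beside 10.1% and 1.42% of all probes. That 1 was Rnf31, the catalytic subunit of the linear ubiquitin ligase, with log2 changes of 0.54 (adjusted p = 0.00444) and 0.59 (adjusted p = 0.0122). The adaptor Fadd differed from untreated cells by 0.08 (adjusted p = 0.542) and 0.03 (adjusted p = 0.938).

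Of 4 other necroptosis genes, 1 was higher under IFN-λ2, Zbp1, and 1 lower, Ticam1, and Zbp1 was also higher under IFN-β. With so few genes, these counts and that of the caspases are read against 10.1% higher and 8.39% lower under IFN-λ2, and 1.42% higher under IFN-β, over all probes. Zbp1 senses Z-form nucleic acids and activates Ripk3. Its mean signal was 106 units in untreated cells, 3983 under IFN-λ2 and 3697 under IFN-β, and the log2 changes were 5.26 ± 0.16 (SE) and 5.14 ± 0.16. Among 7 other caspases, 1 was higher under IFN-λ2 and 1 lower, which is near those shares, and 0 changed under IFN-β. The higher one was Casp14, a caspase of keratinocyte differentiation, with means of 75.3, 380 and 81.9 units and a log2 change of 2.34 ± 0.13 (SE) under IFN-λ2. Between the interferons Casp14 differed by 2.22 ± 0.11. The lower one was the executioner Casp6, at -0.46 (adjusted p = 0.00449).

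The inflammasome and pyroptosis list held 14 other tested genes besides Naip6 and Gsdmc4. Of these, 5 were higher under IFN-λ2 and 0 lower, beside 10.1% and 8.39% of all probes, and 0 were higher or lower under IFN-β. Gsdma, a pore-forming gasdermin of skin and gut epithelium, had means of 408, 962 and 428 units in untreated, IFN-λ2 and IFN-β cells (log2 change 1.23 ± 0.14 under IFN-λ2). Naip2, a sensor of bacterial secretion systems, was well above background on 3 of 3 IFN-λ2 arrays but on 1 of 2 untreated and 1 of 3 IFN-β arrays. Its mean under IFN-λ2 was 141 units, and no fold is given. It belongs to a family of near-identical copies that a probe may not separate. Gsdmd, the gasdermin cut by Casp1 and Casp4, differed by -0.21 under IFN-λ2 (adjusted p = 0.230) and 0.29 under IFN-β (adjusted p = 0.375). It was lower under IFN-λ2 than under IFN-β by 0.50 on the log2 scale (adjusted p = 0.0218). Il1b, Aim2 and Nlrc4 were at the threshold on all arrays.

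Xiap, the target of Xaf1, had log2 differences of 0.18 (adjusted p = 0.168) and 0.14 (adjusted p = 0.563), and of 8 tested genes in its list other than Xaf1, 1 was higher under IFN-λ2, Birc3, which is near the 10.1% of all probes. Among 6 partners of Daxx, 3 were higher under IFN-λ2 and 2 under IFN-β, beside 10.1% and 1.42% of all probes. Pml and Sp100, components of the nuclear bodies that hold Daxx, had log2 changes of 0.84 and 2.80 under IFN-λ2 and of 0.87 and 1.48 under IFN-β. The mean of Sp100 in untreated cells was low, at 35.9 units. Between the interferons, Sp100 was higher under IFN-λ2 by 1.33 on the log2 scale (adjusted p = 0.00102), and the difference of Pml did not pass (adjusted p = 0.817). Atrx, with which Daxx deposits histones, had differences of -0.10 and -0.12 that did not pass. In the Bcl-2 family, which governs the mitochondrial route, 2 of 15 tested genes other than Bcl2a1d were higher (Bok and Bid) and 5 lower under IFN-λ2, beside 10.1% and 8.39% of all probes, and 0 changed under IFN-β. The pro-apoptotic Bmf was among the lower ones, with means of 674, 332 and 639 units and a log2 change of -1.02 ± 0.12 (SE, adjusted p = 0.00220). Of 6 genes of the apoptosome and its nucleases, 1 was higher under IFN-λ2, Cycs, which is near the 10.1% of all probes, and 0 changed under IFN-β.

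**Figure D4:**
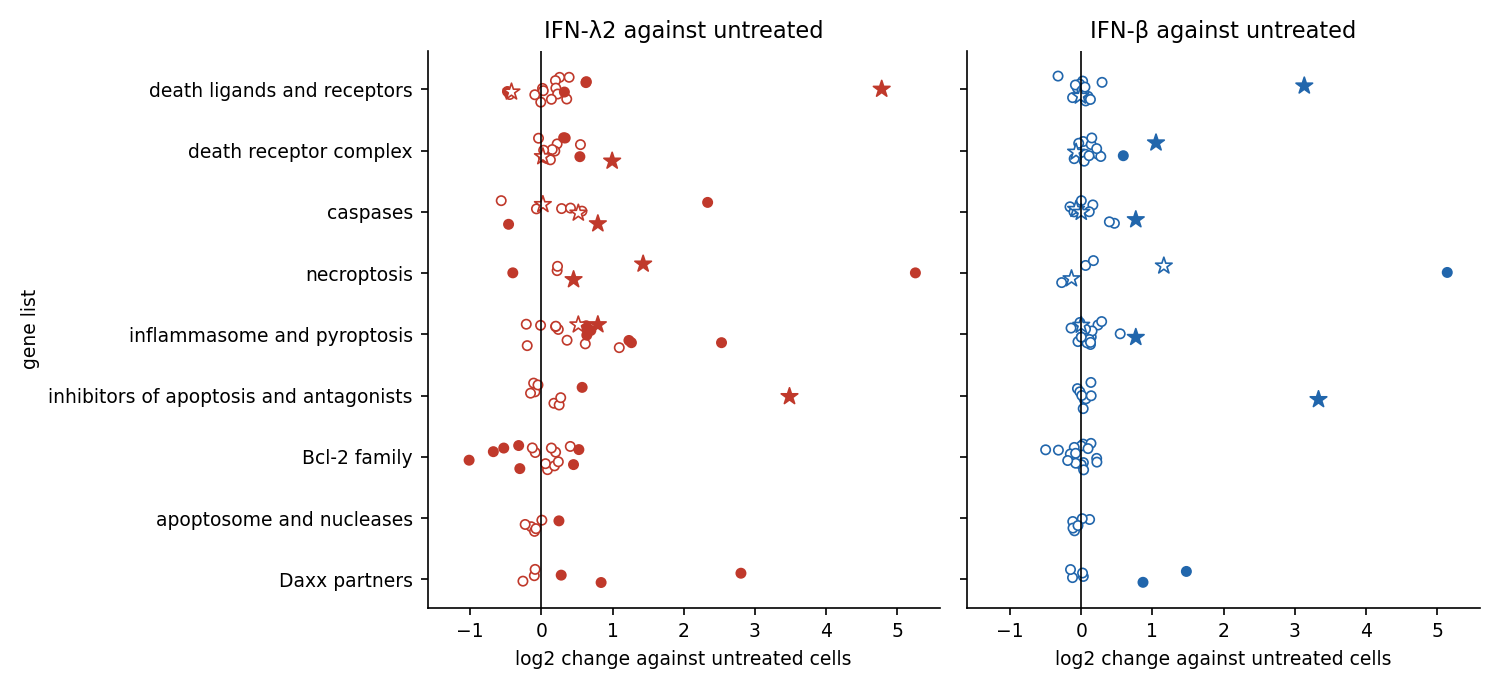
Log2 change against untreated cells of each tested gene in the 9 pathway lists under IFN-λ2 (left) and IFN-β (right). Each point is the brightest probe of a gene, stars are the member genes, filled symbols passed an adjusted p of 0.05, and vertical spread within a list carries no value; under IFN-β, Zbp1 (5.14), Xaf1 (3.33), Tnfsf10 (3.13), Sp100 (1.48), Mlkl (1.16) and Daxx (1.05) lie beyond a 2-fold change.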

How the data were processed

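IEC10 cells were grouped by their labels into untreated (2 arrays), IFN-λ2 (3) and IFN-β (3). The control numbers start at 2 (control replicate 1: not analysed here). The members, gene lists and searches were chosen with earlier results of these data known. The authors extracted the scanned arrays with Agilent Feature Extraction 10.7.3.1 and deposited the intensity of every feature, background-subtracted by that software and not scaled between arrays, as well as a table of scaled intensities. RNA extraction is given as Trizol in the labels and as a column kit in the methods. The deposited table was set against the scanner output and differed from it by a constant log2 offset per array, between -0.110 and -0.138, for at least 99% of probes above the threshold.

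From the scanner output, flagged or outlying features and control features were left out, as the methods describe. Copies of a probe were averaged geometrically, each array's 75th percentile was brought to 1500, values under 15 were set to 15, and log2 was taken. Probes above 15 on at least 2 arrays, 26009 of 39429, were fitted with limma 3.58.1 (lmFit and eBayes, R 4.3.3) as 3 group means over 8 arrays, with Benjamini-Hochberg adjustment over all probes at 0.05. Python 3.11.15 with numpy 2.4.6 and pandas 2.3.3 served for the tables. Members are given for every probe. Of the listed genes, each list is given by its counts, and those with a 2-fold change that passed, on their brightest probe well above background in the brighter group, are given by name; other names from the lists were chosen after their values were seen, for their place in the pathway. Likeness is the root mean square difference of control-centered log2 values, and the 3 nearest gene names are given.

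Replicate numbers mark slides. Deviations from the group means of IFN-λ2 and IFN-β arrays with the same number correlated at 0.309, 0.164 and 0.435 across probes, so that the numbers pair these arrays. With control arrays of the same number the correlations were -0.261 and 0.166 for replicate 2 and -0.237 and -0.330 for replicate 3. The deviations of 2 control arrays from their mean are equal and opposite, so these values cannot settle whether the numbers pair the controls. The fit reported has no block. With the block in limma, the adjusted p between the interferons was 0.0144 for Tnfsf10 and 0.0114 for Ripk3. Alternatives were normexp with an offset of 50, quantile normalization, other floors and probe filters, the deposited table and no feature exclusion. Others were omission of each array, the replicate block, a fit of the compared groups alone, a variance prior with trend, a 2-fold requirement and 1 probe per gene. The last was an equal-variance t-test on the same values. It took the p-value (0.001) and 2-fold thresholds of the methods' two-group analysis, whose test the methods do not name, without the q-value.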

Additional observations from a re-analysis of the deposited data

How the results depend on the processing

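Over 653 values of single probes under other settings, 613 kept their side of the threshold, 21 fell short of it, 19 newly passed it and 0 called values reversed. Of the 613, 13 had the opposite sign, all of them differences of Casp4, Casp8 or Fas that did not pass. The member counts moved as follows, and the cause was not tested except where a rule adds a requirement. Requiring a 2-fold change left 4 of 8 higher probes for IFN-λ2 and 4 of 6 for IFN-β against untreated cells, and 1 of 2 for IFN-λ2 against IFN-β. Normexp with its offset gave 7, 4 and 2. The t-test at the p-value and fold thresholds of the methods' two-group analysis, without its q-value, gave 3, 3 and 0 higher probes in the 3 comparisons. After Benjamini-Hochberg adjustment the t-test gave 4 for IFN-λ2 and 2 for IFN-β against untreated cells. Fas made 1 lower probe in place of 0 for IFN-λ2 against untreated cells with quantile normalization, a floor of 50, the stricter background filter, the authors' table or the trended prior, and 1 for IFN-λ2 against IFN-β with the floor of 50, the stricter filter or the trend. Leaving out each array in turn gave 7 to 9 higher and 0 to 1 lower probes for IFN-λ2 against untreated cells, 4 to 6 and 0 for IFN-β, and 2 to 3 and 0 between the interferons. Casp1, which could only be called higher under IFN-λ2, passed without a floor (adjusted p = 0.00239, against signals not well above background) and without IFN-λ2 replicate 1 (adjusted p = 0.0158). In the fit with the replicate block the counts of higher probes were 8, 4 and 2, and apart from Casp4 under IFN-β it changed no call of a member. Signals near 15 units, as those of Casp1, are limited by background. Those of Tnfsf10 and the second Xaf1 probe in untreated cells are low. The changes of these probes against untreated cells were smaller with normexp and its offset, whose parts were not separated.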
